A study of Mus musculus with 9 samples.

Results

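The nuclear genes of oxidative phosphorylation were taken by symbol from the protein-coding genes of GENCODE vM21: those beginning with Nduf, Uqcr, Cox4, Cox5, Cox6, Cox7, Cox8 or Atp5, together with Sdha, Sdhb, Sdhc, Sdhd and Cyc1, on the 19 autosomes. The rule gave 91 genes of 20780 autosomal protein-coding genes, and used no measured value. They comprised 36 complex I subunits, 8 complex I assembly factors, 4 complex II subunits, 9 complex III genes, 17 complex IV genes and 17 ATP synthase genes. This grouping went by symbol, so Ndufa4, whose protein is now counted with complex IV, and its relative Ndufa4l2 stand among the complex I subunits. Binding of MyoD1 at their promoters was read from anti-Flag CUT and RUN peak lists of C2C12 cells, a mouse myoblast line. Every library analysed came from the clonal C2C12 MyoD1::Halo + iMyoD1 line, which carries 3xFlag-Halo on MyoD1 at its own locus and a further 3xFlag-Halo-MyoD1 copy under the doxycycline-inducible TRE3GS promoter. Cells were moved to differentiation medium for 6 h either without doxycycline (no dox, 3 biological replicates) or with it (+dox, 3 biological replicates). The question was whether raised MyoD1 changes which of these promoters it occupies. The antibody reads tagged protein from both sources, so more MyoD1 per nucleus and more nuclei carrying it cannot be told apart. The 3 wild-type samples, from cells without a tag, were not analysed here, so no value below is set against an untagged background.

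The respiratory chain passes electrons from NADH (complex I) and succinate (complex II) through complex III and cytochrome c to oxygen at complex IV, and the proton gradient so built drives ATP synthase. Most subunits are encoded in the nucleus, and several complex IV subunits come in isoform pairs, of which one is made mainly in heart and skeletal muscle (Cox6a2, Cox7a1, Cox8b) and the other in most other tissues (Cox6a1, Cox7a2, Cox8a). Their promoters are known as targets of NRF1, of the ETS factor GABP, of YY1 and of the estrogen-related receptors (ERR), while MyoD1 prefers the E-box CAGCTG.

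Only a minority of the promoter peaks had the E-box under their maximum. Within 100 bp of it, CAGCTG was found for 18.4 to 38.1% of the oxidative phosphorylation genes with a promoter peak, by library. For the other autosomal genes with a peak this was 22.4 to 26.9%. In the genes below, CAGCTG lay within 100 bp of the maximum in every list that called the promoter, and each is printed with the E-box in capitals, 5′ to 3′ on the gene's own strand, here the minus strand of GRCm38 in all of them. Ndufa4 and Ndufb10 were called in all 6 lists. Ndufs5, Ndufv2 and Uqcrfs1 were called in 5 and were added after their values were seen.
Ndufa4, chr6:11907955-11907984: aaagtcaggaagCAGCTGcagtcttaaacc
Ndufb10, chr17:24724424-24724453: actacgcaggcgCAGCTGtcacctttctgc
Ndufs5, chr4:123718301-123718330: aagtcggtttatCAGCTGtcagcgtctgga
Ndufv2, chr17:66101690-66101719: agggcggggactCAGCTGgcccaaccgggc
Uqcrfs1, chr13:30545241-30545270: aggtggtttgagCAGCTGtcgccatgttgt

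These E-boxes lay between 13 and 57 bp from the median position of the maximum, a closeness that follows from how the genes were chosen. The site of Ndufb10 was in an untranslated or non-coding exon, 40 bp after the main start site, and an NRF1 core (CGCANGCG) stood directly before it. The site of Uqcrfs1 was exonic as well, 107 bp after the start, whereas those of Ndufs5 and Ndufv2 lay before it, at -113 and -145 bp. The site of Ndufa4 was at -486 bp from its main start, on the far side of a start of Phf14, which is transcribed the other way.

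Of the muscle isoforms, Cox7a1 and Cox8b had an entry among the RefSeq promoters, which hold 71 of the 91 genes, and are printed with Cox7a2, the counterpart of Cox7a1 in most tissues. Each line gives 250 bases before to 50 after the RefSeq start (GRCm38.p6), with CAGCTG in capitals.
Cox7a1, chr7:30183921-30184220, plus strand: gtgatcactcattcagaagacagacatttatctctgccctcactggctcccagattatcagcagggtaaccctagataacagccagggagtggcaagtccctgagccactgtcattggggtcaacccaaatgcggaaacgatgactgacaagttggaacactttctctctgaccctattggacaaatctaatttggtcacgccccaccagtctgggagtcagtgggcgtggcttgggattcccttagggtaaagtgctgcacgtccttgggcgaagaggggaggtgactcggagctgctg
Cox8b, chr7:140900397-140900696, minus strand: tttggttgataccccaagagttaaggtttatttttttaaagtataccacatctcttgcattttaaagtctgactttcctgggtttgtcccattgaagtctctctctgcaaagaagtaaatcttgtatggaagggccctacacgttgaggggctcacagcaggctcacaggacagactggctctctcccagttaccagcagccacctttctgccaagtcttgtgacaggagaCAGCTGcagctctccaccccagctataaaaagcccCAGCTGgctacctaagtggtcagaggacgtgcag
Cox7a2, chr9:79759804-79760103, minus strand: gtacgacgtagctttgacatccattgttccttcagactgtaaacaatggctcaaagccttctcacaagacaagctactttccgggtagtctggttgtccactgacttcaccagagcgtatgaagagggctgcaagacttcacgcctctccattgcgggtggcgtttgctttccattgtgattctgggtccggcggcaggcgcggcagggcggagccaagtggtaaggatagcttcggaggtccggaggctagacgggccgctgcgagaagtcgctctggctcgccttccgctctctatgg

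Cox8b held 2 E-boxes of this kind, at -16 and 19 bases from its start site. Cox7a1 and Cox7a2 held 0.

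The 6 lists differed in length and depth, and each result below moves with that. No dox replicates 1 to 3 held 9389, 13877 and 13403 peaks, +dox replicates 1 and 2 held 12536 and 13260, and +dox replicate 3 held 53661. Depths lay between 2868000 and 4667000 alignments in the other 5 libraries and reached 8030000 in +dox replicate 3. Peak heights (the maximum signal of a peak, in CPM) were whole multiples of the worth of 1 alignment, and 94.8 to 99.2% of them were even multiples, so heights are given in alignments. A height percentile is the rank of a peak's height within its own list, where 100 is the highest peak. Of the 6 myogenic loci taken to check the lists, Myod1, Mef2a and Id3 had promoter peaks in all 6 libraries, Myog in 3 of 3 no dox and 1 of 3 +dox libraries, Myf5 in +dox replicate 3 alone and Myf6 in none.

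More promoters of oxidative phosphorylation genes were called with dox, but the groups overlapped. A gene was called when any base of a peak lay within 1 kb of a start site. In the no dox libraries 21, 43 and 20 of the 91 genes were called (23.1, 47.3 and 22.0%), beside 25.1, 33.6 and 21.6% of all genes. In the +dox libraries 38, 38 and 61 were called (41.8, 41.8 and 67.0%), beside 35.6, 33.6 and 52.1% of all genes. The no dox mean was 30.8% ± 14.3 (SD, n = 3) against a +dox mean of 50.2% ± 14.6 (SD, n = 3), a difference of 19.4 percentage points beside a spread between replicates of similar size, and no dox replicate 2 lay above +dox replicates 1 and 2. Over the other autosomal genes the mean went from 26.8 to 40.4%. Without +dox replicate 3 the difference was 11.0 points, and with every list shortened to its 9389 highest peaks it was 4.03 points.

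Within a library, the oxidative phosphorylation genes were called more often than the other genes in 5 of 6 libraries, by 6.90 points on average (SD 6.87, n = 6). With lists of equal length this was 3.15 points and with a common floor on total signal 3.35. The excess was 14.97 points in +dox replicate 3 and 13.7 points in no dox replicate 2, and no dox replicate 1 went the other way, at -2.03 points. In the plot of shares by library these appear as the blue points above the grey ones.

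**Figure D1:**
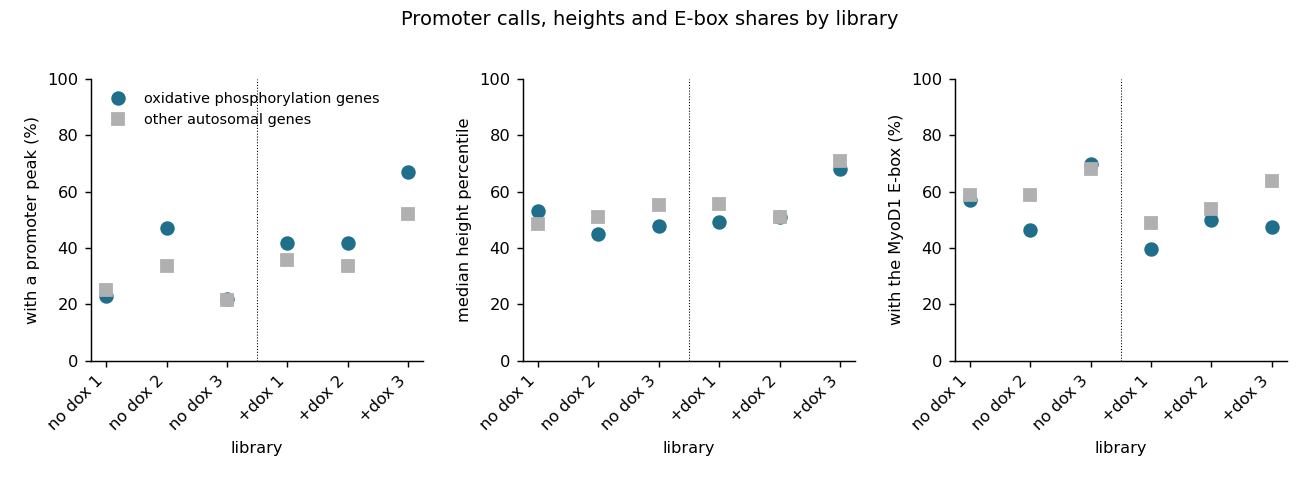
Each point is 1 library. The panels show the percent of genes with a promoter peak, the median height percentile of the called genes and the percent of called genes with CAGCTG in their promoter peaks or the 100 bp on each side, for the 91 oxidative phosphorylation genes (circles) and the other autosomal protein-coding genes (squares). The call share of the circles runs from 22.0 to 67.0%, with no dox replicate 2 at 47.3% inside the +dox range.

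A gene called in at least 2 of 3 libraries of a group was taken as bound in that group, wherever near its start sites the peaks lay. On this rule 22 of the 91 genes (24.2%) were bound in both groups, against 24.3% of all genes, 21 (23.1%) were gained with dox, against 13.7% of all genes, and 1 (Atp5c1, the gamma subunit of ATP synthase) was lost, against 1.28%. A further 27 genes (29.7%) were called in at most 1 library of each group, against 18.2% of all genes, of which 12 (13.2% of the 91) were seen in +dox replicate 3 alone, against 10.3%. There was no call in any library for 20 (22.0%), against 42.5% of all genes. Where the peaks also had to overlap between libraries of a group, 20 were gained (22.0%), against 13.6% of all genes, and 22 were bound in both, against 23.6%. The gene that left was Uqcrc1.

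The count of gained genes rested on single libraries, with 2 libraries of a group asked for unless stated. Without +dox replicate 3 it was 6 of 91 (6.59%) beside 6.70% of all genes, without +dox replicate 1 it was 13 (14.3%) beside 9.03%, and without +dox replicate 2 it was 12 (13.2%) beside 10.5%. Without no dox replicates 1, 2 and 3 in turn it was 29, 32 and 24 (31.9, 35.2 and 26.4%), beside 20.6, 22.9 and 17.1%. From replicates 1 and 2 of each group alone it was 9 (9.89%), beside 8.95% of all genes. Lists of equal length gave 5 (5.49%), beside 4.83%, and a common floor on total signal gave 11 (12.1%), beside 9.49%. Lost genes numbered between 0 and 3 when single libraries were left out. Asking for 3 of 3 +dox libraries and at most 1 no dox library gave 5 (5.49%), beside 6.23%. The share of gained oxidative phosphorylation genes thus lay within 1 percentage point of that of all genes without +dox replicate 3, from replicates 1 and 2 alone, with lists of equal length and with 3 of 3 libraries, and further above it on leaving out each of the other libraries and with the common floor.

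Of the 91 genes, 35 had the start of another protein-coding gene within 1 kb, against 3078 of all 20780, and a peak there cannot be assigned to one of the pair. Among the 56 genes with a start region of their own, the mean call share went from 27.4% without dox to 46.4% with dox. Over all such genes it went from 23.7 to 36.4%. Of the 56, 13 (23.2%) were gained, against 12.6% of all such genes. For the 35 that share a region the call share went from 36.2 to 56.2%, below the 44.5 and 63.6% of all genes that share one. Of the 35, 8 (22.9%) were gained, against 20.6%.

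**Figure D2:**
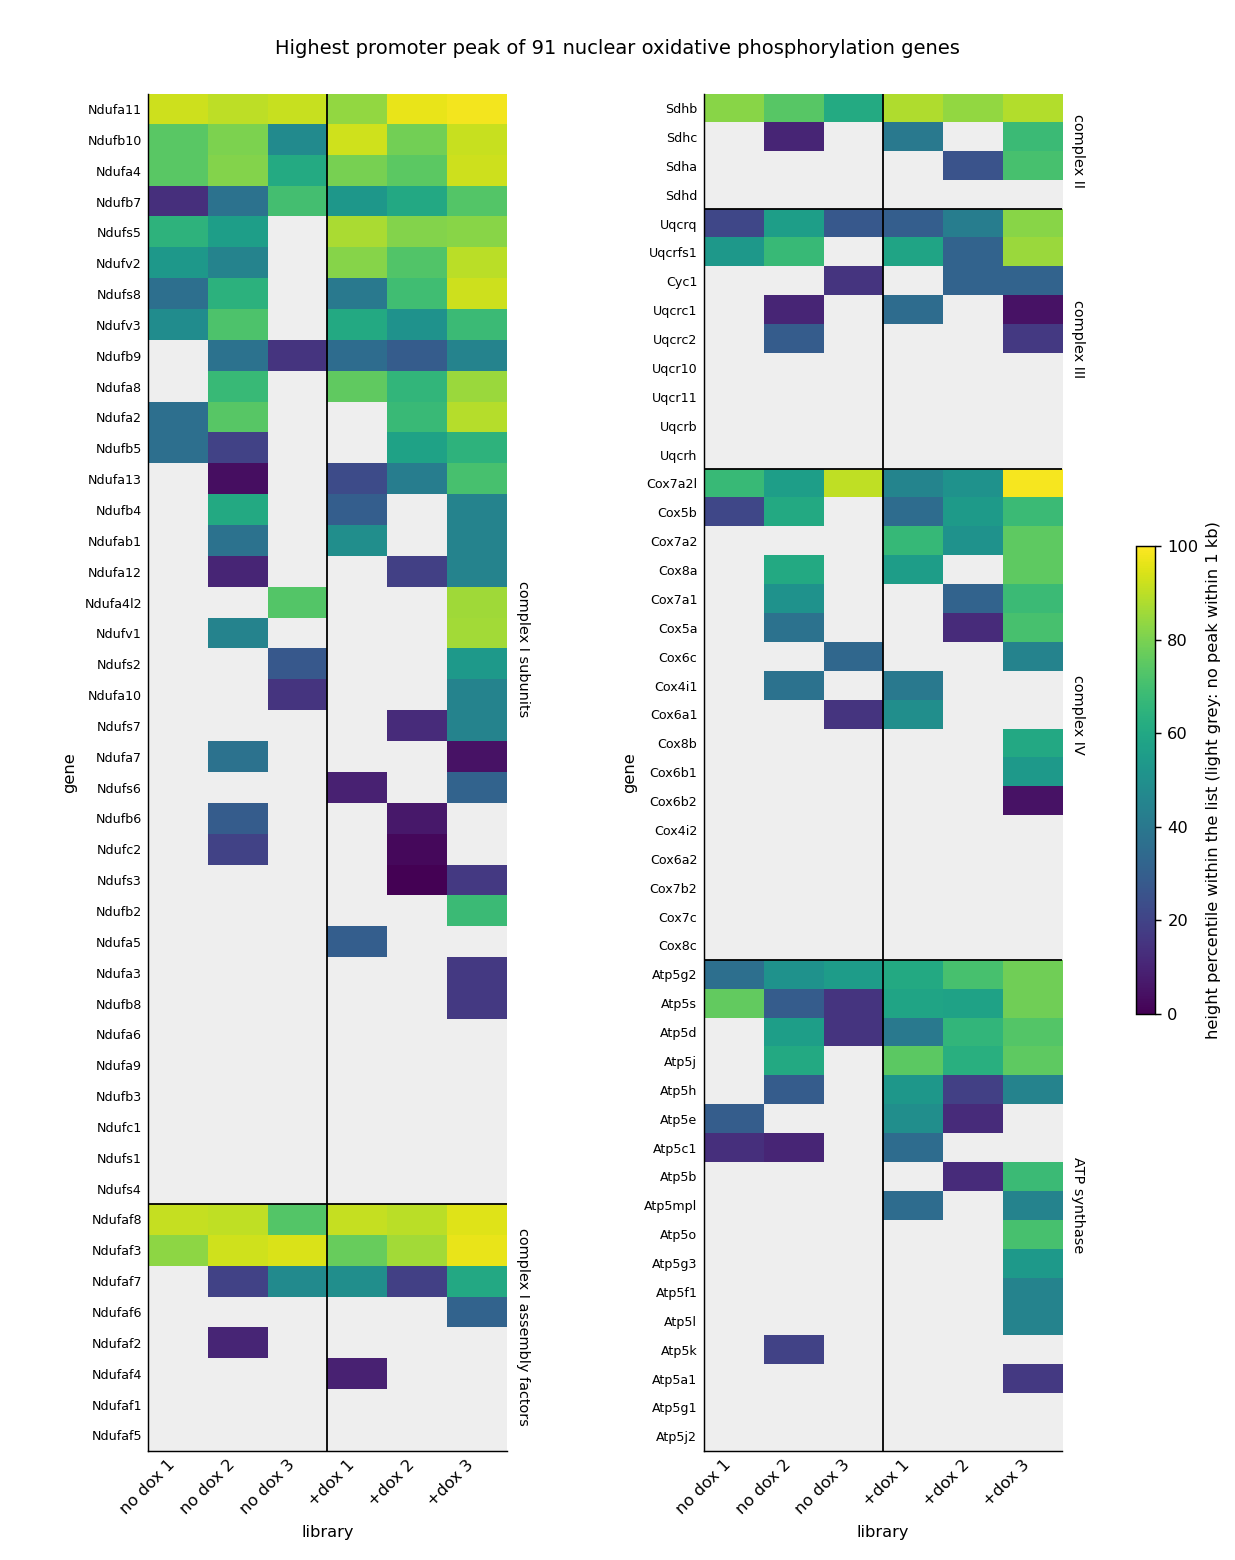
Rows are the 91 genes, grouped by complex and ordered by the number of libraries that called them, and columns are the 6 libraries. Colour gives the height percentile of the highest promoter peak within its list, and light grey marks no peak within 1 kb of a start site. The 11 genes coloured in every column, 20 grey in every column and the denser column of +dox replicate 3 can be read off directly.

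Every complex had more calls with dox on average, as did all genes, of which 26.8% were called without dox and 40.4% with dox, 24.3% were bound in both groups and 13.7% were gained. Complex I subunits went from a mean of 35.2% called to 55.6%, with 11 of 36 bound in both groups and 8 gained. Ndufa4 is among these 11 by its symbol. Its assembly factors went from 37.5 to 45.8%, with 3 of 8 bound in both and 0 gained. Complex II, which oxidises succinate, had 1 of 4 bound in both (Sdhb) and 2 gained (Sdha and Sdhc). Complex III had 2 of 9 bound in both (Uqcrq and Uqcrfs1, the Rieske iron-sulfur protein) and 2 gained (Cyc1, cytochrome c1, and the core protein Uqcrc1). The 3 peaks of Uqcrc1 lay apart, at 42 bp from the main start in +dox replicate 1, at 12242 bp in +dox replicate 3 and at 8692 bp in no dox replicate 2, so no site of this gene was called in more than 1 library. Complex IV had the lowest share without dox, at 21.6%, and 41.2% with dox, with 2 of 17 bound in both (Cox5b and Cox7a2l) and 4 gained (Cox5a, Cox7a1, Cox7a2 and Cox8a). ATP synthase went from 27.5 to 52.9%, with 3 of 17 bound in both (Atp5d, Atp5g2 and Atp5s), 5 gained and 1 lost. With 4 to 36 genes in a complex and 3 libraries a group, these shares were not tested against each other.

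There were 11 of the 91 genes (12.1%) with a call in all 6 libraries, against 14.1% of all genes. The highest was Ndufa11, a membrane subunit of complex I, with percentiles of 92.4, 90.2 and 91.7 without dox and 83.7, 96.5 and 98.3 with dox, at heights of 52 to 218 alignments. Its values were high in every library and the groups overlapped. The maxima lay between chr17:56716975 and chr17:56717075, beside the start of Vmac, 790 bp from that of Ndufa11. Next came complex I assembly factors. Ndufaf8 had 91.4, 90.5 and 73.4 without dox and 91.2, 89.8 and 95.2 with dox, in a region shared with Tepsin. Ndufaf3 had 83.1, 92.7 and 94.2 without dox and 76.8, 86.2 and 96.6 with dox. The lowest values were 73.4 and 76.8, and the groups overlapped in both genes.

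Sdhb, the iron-sulfur subunit of complex II, had percentiles of 82.2, 74.2 and 61.2 without dox and 88.1, 83.6 and 88.4 with dox. Ndufb10, a membrane-arm subunit of complex I, had 74.2, 80.4 and 47.9 without dox and 92.6, 78.8 and 91.7 with dox. The +dox values of Sdhb lay above all its no dox values, while those of Ndufb10 overlapped. The mean difference of Sdhb was 14.2 points, and 2.07 with lists of equal length. Ndufa4, whose protein is now counted with complex IV, had 74.2, 81.5 and 61.2 without dox and 79.6, 74.8 and 92.3 with dox, which overlapped too.

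Atp5g2, which encodes subunit c of the rotor of ATP synthase, had percentiles of 36.6, 51.0 and 55.3 without dox and 60.8, 71.1 and 78.5 with dox. All +dox values lay above all no dox values, and its limma difference was 22.5 percentile points (SE 7.22, adjusted p = 0.271), or 12.6 points with a common floor on total signal, while equally long lists no longer called it in all 6. Atp5s, the coupling factor B gene, had the widest mean difference, 24.9 points (SE 17.1, limma adjusted p = 0.442), but a no dox range of 14.9 to 76.0 that held both lower +dox values. Ndufb7 (21.8 points, limma adjusted p = 0.447), Ndufb10 (20.2 points, limma adjusted p = 0.358) and Uqcrq (16.4 points, limma adjusted p = 0.579) overlapped between the groups as well. With single libraries left out, the difference ran from 12.3 to 42.9 points for Atp5s, from 8.39 to 36.6 for Ndufb7, from 10.4 to 26.6 for Ndufb10 and from 1.03 to 27.3 for Uqcrq. The differences of Cox7a2l, at -6.52 points (limma adjusted p = 0.839), and of Ndufaf3, at -3.46 points (limma adjusted p = 0.772), were the only negative ones, and both turned positive in places, Cox7a2l to between 0.48 and 3.28 without no dox replicate 3 or +dox replicate 1 or 2, and Ndufaf3 to 1.40 without +dox replicate 1. Ranked by total signal they were 6.54 and 0.155. Cox7a2l, a factor of supercomplex assembly, reached a height of 232 alignments and percentile 98.5 in +dox replicate 3, against percentiles 45.3 and 50.8 in the other +dox libraries.

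In the limma fit over the 2926 genes called in all 6 lists, 0 of 11 oxidative phosphorylation genes and 0 of 2926 genes (0%) passed an adjusted p of 0.05 in either direction. At an unadjusted p under 0.05 there were 1 of the 11 (Atp5g2) and 478 of the 2926 (16.3%). The median difference was 14.2 points over the 11 and 10.7 over all genes, and with lists of equal length these were 0.47 over the 7 members then in all lists and 0.49 over all genes. The +dox percentiles lay above all no dox percentiles in 2 of the 11 genes (Sdhb and Atp5g2), against 31.4% of all genes in the fit, and below them in 0, against 0.0684%.

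**Figure D3:**
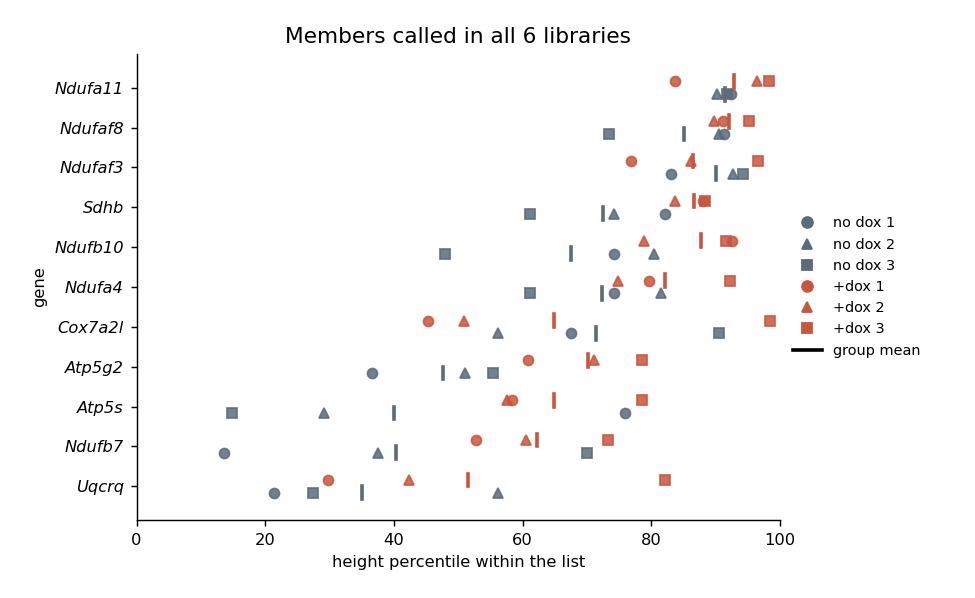
Height percentile within the list for the 11 genes called in all 6 libraries. Each symbol is 1 library, grey without dox and red with dox, and bars are group means over 3 libraries. For Sdhb and Atp5g2 the red symbols lie to the right of all the grey ones, and in the other 9 genes the groups overlap.

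Over all called promoters of a library, the median height percentile was 53.3, 44.9 and 47.9 without dox and 49.3, 50.8 and 68.0 with dox. The mean went from 48.7 ± 4.26 to 56.1 ± 10.4 (SD, n = 3 each), a difference of 7.36 that is smaller than the spread among +dox libraries and turned to -2.04 with lists of equal length. For the other genes the difference of the means was 7.52. The oxidative phosphorylation genes stood lower in their lists than the other called genes in 4 libraries, higher in 1 and level in 1, with a mean difference of -3.01 points (SD 4.71, n = 6). It was 0.00997 points among genes with a start region of their own, -4.70 with lists of equal length and -10.1 when peaks were ranked by total signal. Their median heights were 24, 18 and 14 alignments without dox and 24, 26 and 20 with dox.

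Of the muscle isoforms of complex IV, Cox6a2 was called in 0 of 6 libraries, Cox8b in 1 and Cox7a1 in 3, beside 2 for Cox6a1 and 3 each for Cox8a and Cox7a2. Cox6a2, the heart and skeletal muscle form of subunit VIa (chr7, start at 128206387, minus strand), had no peak within 1 kb in any list, and its nearest peak was 30214 to 31864 bp away. Its counterpart Cox6a1 was called in no dox replicate 3 (percentile 14.9) and +dox replicate 1 (percentile 49.3). Cox8b, the muscle form of subunit VIII, was called in +dox replicate 3 alone, at percentile 60.2 and a height of 16 alignments. That peak, chr7:140899651-140900550, had its maximum 21 bp after the start and spanned both E-boxes printed above. Its counterpart Cox8a was called in no dox replicate 2 (percentile 60.7) and in +dox replicates 1 and 3 (percentiles 55.8 and 75.3), with no CAGCTG in those peaks or the 100 bp around them.

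Cox7a1, the muscle form of subunit VIIa, was called in no dox replicate 2 (percentile 51.0) and in +dox replicates 2 and 3 (percentiles 31.9 and 68.0), at heights of 18 to 20 alignments. Its region, chr7:30183551-30184450, covered the start site and held no CAGCTG. By the rule of 2 in 3 it counts as gained, although a no dox library had it at a higher percentile than a +dox library. Cox7a2, its counterpart, was absent from all 3 no dox lists and present in all 3 +dox lists, with percentiles of 67.2, 50.8 and 75.3 and heights of 38, 26 and 26 alignments. None of the other oxidative phosphorylation genes had this pattern of calls in all +dox and no untreated libraries, which 1.75% of all genes showed. The maximum was at chr9:79759825 in each list, 53 bp after the start, with no E-box of the preferred kind in reach. The reverse pattern was seen in 0 of the 91 genes, against 0.00481% of all genes.

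Other subunits also have relatives of more restricted expression. Cox4i1, the general form of subunit IV, was called in no dox replicate 2 and +dox replicate 1 in a region shared with Emc8, while Cox4i2, known from lung, was called in none. A distant region with CAGCTG, chr2:152765751-152767200, was centred 12302 bp downstream of the main Cox4i2 start. It was called in no dox replicate 2 (percentile 60.7) and in the +dox libraries (percentiles 79.6, 72.7 and 94.2). Cox6b1 and the testis form Cox6b2 were called in +dox replicate 3 alone, at percentiles 54.0 and 4.90, and Cox8c, also known from testis, in none. Ndufa4l2, the hypoxia-induced relative of Ndufa4, was called in no dox replicate 3 and +dox replicate 3. In all 6 lists, however, a peak with CAGCTG stood in chr10:127511551-127514150, centred 2117 bp before its start, with percentiles of 67.5, 74.2 and 73.4 without dox and 74.6, 83.6 and 85.6 with dox, and only the wider intervals of the replicates numbered 3 reached within 1 kb.

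**Figure D4:**
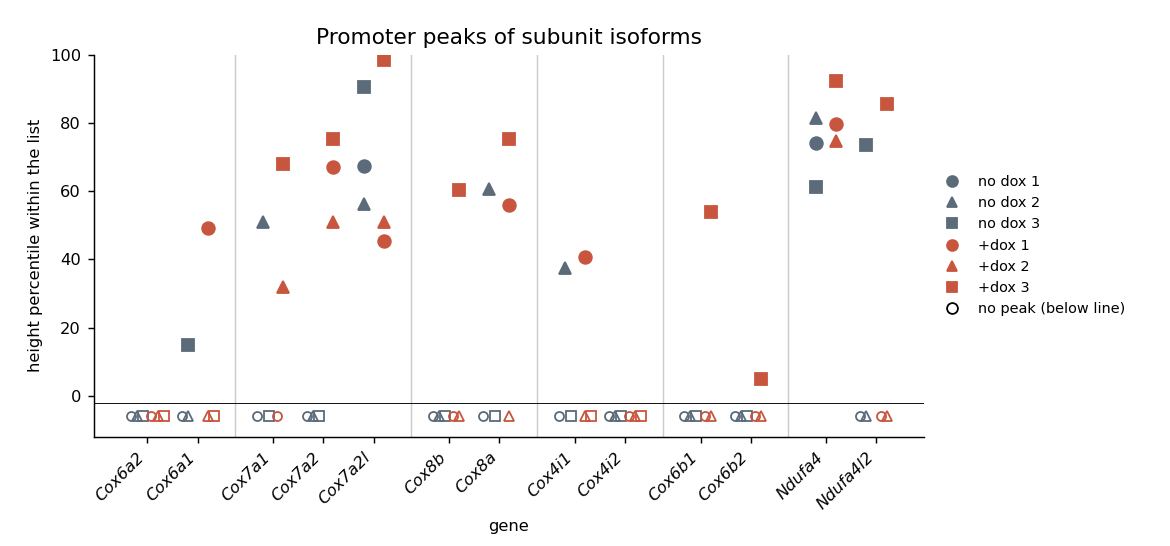
Height percentile of the highest promoter peak for 13 isoform genes. Filled symbols are libraries that called the promoter, grey without dox and red with dox, and open symbols under the line are libraries with no peak within 1 kb. Cox6a2 and Cox4i2 have open symbols only, Cox7a2 has 3 filled red and 3 open grey symbols, and Ndufa4 and Cox7a2l are filled in all 6 libraries.

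Among the gained genes, the highest in the +dox lists were Ndufa8 and Atp5j. Ndufa8, a complex I subunit, had a percentile of 67.4 in no dox replicate 2, was missing from the other no dox lists, and had 75.8, 65.7 and 84.8 with dox, in a region shared with Morn5. Atp5j, coupling factor 6 of ATP synthase, had 60.7 in no dox replicate 2 alone and 74.6, 63.2 and 75.3 with dox, in a region it shares with Gabpa, which encodes a GABP subunit. Their heights were 28 alignments in no dox replicate 2 and 50, 36 and 42 with dox for Ndufa8, and 24 against 48, 34 and 26 for Atp5j. The percentile in no dox replicate 2 lay above or within 3 points of the lowest +dox value in both. Cox8a and Cox7a2 followed, and then Sdhc, the membrane anchor of complex II, with 10.4 in no dox replicate 2 and 40.6 and 68.0 in +dox replicates 1 and 3. The other genes among the 10 highest, Cox7a1, Sdha, Ndufab1, Ndufa13 and Cox5a, had mean +dox percentiles of 41.6 to 49.97. Of the 21 gained genes, 14 had been called in 1 no dox library and 7 in none. Of the 2856 gained among all genes, 1705 had been called in 1 and 1151 in none. The lost gene, Atp5c1, was low throughout, with percentiles of 13.6 and 10.4 in no dox replicates 1 and 2 and 35.5 in +dox replicate 1.

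The genes called in no library included Cox6a2, Cox4i2, Cox8c and Cox7b2 among tissue-restricted forms, but also general subunits, such as Cox7c of complex IV, Ndufa9, Ndufs1 and Ndufs4 of complex I, Uqcrb, Uqcrh, Uqcr10 and Uqcr11 of complex III, Sdhd of complex II, and Atp5g1 and Atp5j2 of ATP synthase. Complex III had 4 of its 9 genes without a call (44.4%), the highest share of any complex but near the 42.5% of all genes.

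Most peak maxima at these promoters lay near an annotated start. The peaks were chosen within 1 kb of a start and distances taken to the nearest start of the gene, which favours short distances. The other genes were not measured in this way. Over the 221 gene and library combinations with a call, the maximum lay a median of 66 bp from the nearest start, and within 250 bp in 180 (81.4%). It fell upstream of the gene in 111, in an untranslated or non-coding exon in 80, in an intron in 16 and in a coding exon in 14. The median width was 750 bp, from 450 bp in +dox replicate 1 to 1225 bp in no dox replicate 3. The median distance was also largest in no dox replicate 3, at 128 bp.

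CAGCTG was found in the promoter peaks, extended by 100 bp on each side, of 57.1, 46.5 and 70.0% of called oxidative phosphorylation genes without dox and of 39.5, 50 and 47.5% with dox. The +dox mean of 45.7% ± 5.51 stood -12.2 points from the no dox mean of 57.9% ± 11.8 (SD, n = 3 each), about the size of the spread between no dox libraries, and the groups overlapped. It was -6.16 points both on leaving out no dox replicate 3 and on shortening the lists to 1 length, and -2.89 with a common floor on total signal. For the other genes the means were 62.0 and 55.5%, a difference of -6.46 points. Within libraries the share was below that of the other genes in 5 of 6, by 6.96 points on average (SD 6.84, n = 6), a mean difference that was -1.64 with lists of equal length and -12.3 among genes with a start region of their own. Within 100 bp of the maximum the difference had the other sign, at 1.83 points, with 18.4 to 38.1% of the oxidative phosphorylation genes and 22.4 to 26.9% of the others holding the E-box.

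The E-box was also counted by class of call, over the peaks of every library that called the gene. Of the 22 genes bound in both groups, 17 (77.3%) held CAGCTG in a promoter peak of at least 1 list, against 77.4% of all genes of that class. Of the 21 gained genes 7 did (33.3%), against 57.5% of all gained genes. Of the 27 called in at most 1 library of each group 11 did (40.7%), against 54.3%. The median heights of these classes were 30, 18 and 12 alignments, and the part of peak height and width in the shares was not tested. The gained genes with the E-box were Atp5b, Atp5h, Ndufa8, Ndufa13, Ndufs7, Sdha and Uqcrc1 (not in its peak at the main start), and the genes bound in both without it were Atp5s, Cox7a2l, Ndufaf7, Ndufs8 and Ndufv3.

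Close to the start, the NRF1, ETS, YY1 and ERR motifs departed further from the shares of all genes than CAGCTG did. Each motif was searched on both strands, and a match is a description of letters and not of a bound factor. From 250 bases before to 50 after the main GENCODE start, CAGCTG was in 13.2% of the 91 promoters and 15.5% of all. The NRF1 core CGCANGCG was in 28.6 and 11.0%, the ETS motif CCGGAAG in 17.6 and 11.4%, the YY1 motif AAGATGG in 12.1 and 6.36%, and the ERR half-site AAGGTCA in 11.0 and 3.99%. The Sp1 motif GGGCGG (42.9 and 46.2%), CCAAT (36.3 and 38.2%) and the AP-1 motif TGANTCA (4.40 and 6.68%) were at or below the share of all genes. Median GC content was 56.0% in the 91 promoters and 56.3% in all. Over 1 kb on each side of the main start, CAGCTG was in 51.6% of the 91 genes and 62.4% of all.

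The ERR half-site stood after the start rather than before it. In the 1 kb before the start 19 of 91 genes held it (20.9%), against 17.1% of all genes, and in the 1 kb after the start 48 of 91 did (52.7%), against 14.6% of all genes. By bins of 250 bp the share was highest from 0 to 250 bp, at 22.0% against 2.98% of all genes. Of the 89 sites, 10 (11.2%) lay in repeats as marked in the reference, against 16.5% of those of all genes. CAGCTG ran the other way after the start, in 26.4% of the 91 genes and 42.5% of all. The plot of motifs by distance shows both. Among genes called in all 6 lists, Cox7a2l and Atp5s had their nearest half-site after the start at 848 and 889 bp, and these are not printed. The closer ones follow, on GRCm38 with the half-site in capitals and on the strand that reads it.
Atp5g2, chr15:102670919-102670948, plus strand, 194 bp after the start: tgggagctagcAAGGTCAgggcggccacgc
Ndufa11, chr17:56717978-56718007, plus strand, 225 bp after the start: gtctggaagcaAAGGTCAgagggcgcgcgg
Uqcrq, chr11:53430418-53430447, minus strand, 395 bp after the start: aatgactggcctAAGGTCActtgggtgact
Sdhb, chr4:140961719-140961748, plus strand, 530 bp after the start: agggagaggtcAAGGTCAtaggatgagcga

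**Figure D5:**
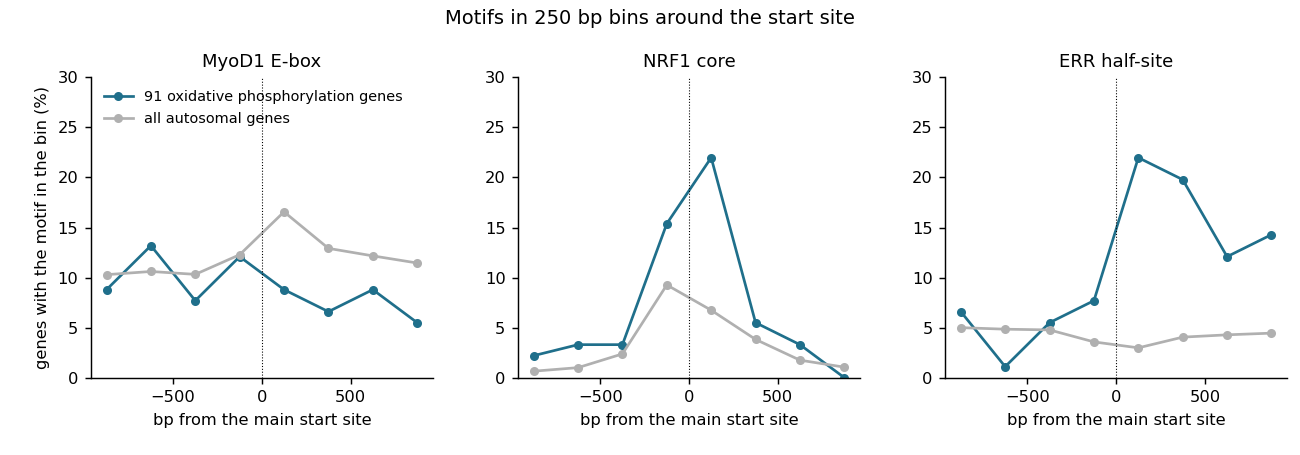
Percent of genes with the MyoD1 E-box, the NRF1 core or the ERR half-site in each 250 bp bin around the main start site, for the 91 oxidative phosphorylation genes (blue) and all autosomal protein-coding genes (grey). The ERR half-site reaches 22.0% of the 91 genes from 0 to 250 bp after the start, where all genes stand at 2.98%, and the E-box stays below the grey line after the start.

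The same sites were counted by call. Within 1 kb of the start on either side, the ERR half-site was in 65.9% of the 44 genes bound in at least 1 group and in 57.4% of the other 47, and the NRF1 core in 47.7 and 40.4%. The ETS motif went the other way, in 29.5 and 44.7%, as did the YY1 motif, in 38.6 and 51.1%. Over all genes of the same classes these shares were 25.9 and 31.0% for the ERR half-site, 35.9 and 13.1% for the NRF1 core, 36.3 and 18.0% for ETS and 34.3 and 35.2% for YY1. CAGCTG was in 54.5% of the 44 and 48.9% of the 47, against 65.5 and 60.4% over all genes. Under the peaks themselves, within 100 bp of the maximum, the NRF1 core was in 10 to 39.5% of called oxidative phosphorylation genes, against 8.78 to 17.8% of the other genes, and was the higher of the 2 in every library. The ERR half-site was there in 0 to 10.5%, against 0.964 to 2.32%, and the AP-1 motif in 0 to 2.63%, against 3.16 to 5.36%. For the ERR half-site these were 1, 2 and 0 genes without dox and 4, 1 and 2 with dox. In no dox replicate 3 its share was below that of the other genes. The AP-1 motif was in at most 1 gene a library.

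Other gene lists, some of them outside these pathways, were set beside these genes and beside all genes, of which 26.8 and 40.4% were called and 13.7% gained. Of 31 respiratory assembly factors outside the symbol rule, a mean of 37.6% was called without dox and 68.8% with dox, and 12 (38.7%) were gained. Of these 31, 6 (19.4%) were called in all 6 libraries, against 14.1% of all genes. Tmem126b, which helps assemble complex I, was among the 6. Of 16 regulators of mitochondrial genes, 60.4 and 75.0% were called and 1 (Gabpa, 6.25%, in the region shared with Atp5j) was gained. Esrra, which encodes ERR alpha, Tfb1m, Ppard, Pprc1 and Yy1 were called in all 6 (31.25% of the 16). Of 12 citric acid cycle genes, 50 and 66.7% were called and 2 (Dlst and Dld, 16.7%) were gained. Of 78 mitochondrial ribosomal protein genes, 29.9 and 50.4% were called and 15 (19.2%) gained, and of 84 cytosolic ones 23.0 and 44.4% were called and 21 (25%) gained. For the oxidative phosphorylation genes these values were 30.8 and 50.2%, with 21 of 91 (23.1%) gained. Differences between lists were not tested.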

How the data were processed

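CUT and RUN libraries with the anti-Flag M2 antibody were processed by the authors with nf-core/cutandrun 3.2.2 on mm10 with blacklist removal, CPM scaling and SEACR in relaxed mode, run on each library on its own. The submitters' processing notes also name deepTools. The numeric threshold of SEACR was not given in the sources used here. The deposited lists hold signal values: column 4 is the total signal over a peak and column 5 its maximum, both in CPM without a spike-in scale.

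Any base of a peak within 1 kb of a GENCODE vM21 start site called the gene, on GRCm38, the assembly of mm10. The highest such peak gave the height percentile. The worth of 1 alignment was the common step of the maxima, with a tolerance of 0.05 steps, and the depth is its inverse. Libraries held 2868000 to 8030000 alignments, and the authors' lists give no read counts. Percentiles of genes called in all 6 lists were fitted with limma 3.58.1 (R 4.3.3), with Benjamini-Hochberg adjustment over all 2926 genes. Scripts in Python 3.11.15 (NumPy 2.4.6, SciPy 1.17.1, pandas 2.3.3, pyfaidx 0.9.0.4) were tested on simulated data. The study's 2 in 3 rule is for peaks and was applied here to genes, so that peaks at different start sites of a gene could together count it as bound. An alternative added after seeing the data asked the peaks to overlap between libraries. The members and lists were chosen with earlier results of these data known. For that reason no p is given for a share or median over the members. Exact permutation tests over the 3 and 3 libraries, which cannot go below 0.1, enter only the record of alternatives. Replicates are the study's biological replicates.

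The genes named are the isoforms, the 5 highest of those called in all 6 libraries, the 5 with the largest differences in each direction, members called in 3 of 3 libraries of a group and 0 of 3 of the other, the 10 highest gained or lost, up to 15 without a call, and those with an E-box at the maximum in all 6 libraries. Others were chosen after their values were seen. The numbers of the replicates were not taken to pair the libraries: the deviations from the group means correlated at 0.172, 0.0197 and 0.242 over 11952 genes for replicates 1, 2 and 3. Alternatives left out each library, set lists to 9389 peaks or to a common floor of total signal, changed the distance, start sites, ranks and motif window, and asked for 3 of 3 libraries.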

Additional observations from a re-analysis of the deposited data

Results flagged for a closer look

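The symbol rule also matched 3 genes on chromosome X (Cox7b, Ndufa1 and Ndufb11), which the restriction to autosomes leaves out, and some peaks lay there. Ndufa1, a small complex I subunit, had a promoter peak of 17 alignments in +dox replicate 2 and of 20 alignments in +dox replicate 3. Ndufb11, another complex I subunit, had promoter peaks of 18 and 10 alignments in no dox replicates 1 and 2 and of 26 and 30 alignments in +dox replicates 1 and 3. The mitochondrial genome, which encodes the remaining subunits of the respiratory chain, had 1 peak in +dox replicate 1, of 14 alignments, and 1 in +dox replicate 2, of 20 alignments, and 0 in the other 4 lists. No untagged library was analysed here, so these signals have no background of their own.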

How the results depend on the processing

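The sign of 3 results turned. The +dox minus no dox difference of the median percentile went to -2.04 with lists of equal length, the percentile difference between oxidative phosphorylation and other genes went to 0.00997 without genes that share a start region, and the CAGCTG difference between them went to 1.83 within 100 bp of the maximum. The cause was not tested. The count of gained genes (21) was 9 from replicates 1 and 2 alone, 5 with lists of equal length, 11 with a common floor on total signal, 13 of 56 without genes that share a start region, and 5 when 3 of 3 libraries were asked for. It lay between 6 and 32 with single libraries left out. The count of lost genes (1) was 3, 0, 2, 0 and 0 under the same 5 settings in turn, and between 0 and 3 with single libraries left out. The limma fit called 0 of the members in every setting. Of 156 values for the 11 genes called in all 6 libraries, 143 kept the sign of their difference. A further 140 values of the main comparisons under these alternatives kept their direction or, for counts, stayed within 1.5 times the main count. Another 18, all counts of gained or lost genes, did not, and 3 turned sign as given above. The limma counts of 0 members are among the 140. As 0 genes of any kind passed in every setting, these counts say little on robustness. With the replicate number as a block, the differences of 19.4, 7.36 and -12.2 points could not change, as each number covers a no dox and a +dox library. They are among the 140 values above and say nothing on robustness. No limma call changed. Since the numbers are not known to mark shared cultures, this block is only a second model. Depth limits what a missing call means: a promoter without a peak had no signal detectable at this depth and threshold. The 3 libraries a group and the length of +dox replicate 3 limit every comparison.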
